A study of Homo sapiens with 6 samples.

Results

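The mitochondrial ribosomal protein genes are the nuclear genes that encode the proteins of the mitochondrial ribosome. They were chosen by symbol, as protein-coding genes named MRPL or MRPS followed by a number and, in some cases, a letter. This gave 78 of 19812 annotated protein-coding genes, of which 49 are named MRPL, for the large subunit, and 29 are named MRPS, for the small subunit. The rule itself uses no measured value, although it was set with earlier results of these data known. Symbols do not follow subunit structure everywhere: the products of MRPS30 and MRPS18A are built into the large subunit, and the product of MRPS36 has been placed in the 2-oxoglutarate dehydrogenase complex.

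The values came from HL-60 cells, an established human line derived from an acute myeloid leukaemia, in which chromatin carrying SUMO-2/3 was immunoprecipitated and sequenced (ChIP-seq). Mock cells received water, Ara-C cells received 2 µM cytosine arabinoside and DNR cells received 1 µM daunorubicin, each for 2 h, and each immunoprecipitation used 2 µg of antibody. Immunoprecipitated DNA from 3 experiments was pooled before sequencing, so each condition is 1 library and 1 list of peaks, and no difference between conditions has a replicate check or a test. The series also holds 3 input samples, which were not analysed here. Outside the mitochondrial chromosome, the mock list held 44264 peaks, the Ara-C list 72277 and the DNR list 33354. A peak here is a run of input-subtracted signal above a fixed value, so a missing peak means that the run did not form, not that SUMO was absent. The read depth of the libraries is unknown from these lists, and a difference in depth, scaling or background between libraries cannot be told apart from an effect of the drug.

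The mitochondrial ribosome translates the few proteins encoded by mitochondrial DNA, which are subunits of the respiratory chain and of ATP synthase. Its RNA is made inside the organelle, but every one of its proteins is transcribed in the nucleus, translated in the cytoplasm and imported, so its supply depends on the promoters of many scattered nuclear genes. SUMO-2 and SUMO-3 are small proteins that are joined to lysines of other proteins, many of them transcription factors and chromatin proteins, and are removed by SUMO proteases. Ara-C is a nucleoside analogue that stalls DNA synthesis, and DNR is an anthracycline that intercalates in DNA and traps topoisomerase II.

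A gene was counted as having a promoter peak when at least 1 bp of a peak lay between 2 kb upstream and 1 kb downstream of any of its annotated transcription start sites (TSSs). Positions are 1-based in hg19. The stretches below show what such peaks contained at the 4 members with a mock peak of 400 bp, MRPL1, MRPL40, MRPS12 and MRPS23. Each is the longest run of the mock peak outside annotated exons, at most 300 bases, read on the strand of the member. Capitals mark the bases that also lay inside the peak called under Ara-C. For MRPL1 (chr4:78783684-78783983, plus strand, directly upstream of the gene) 233 of 300 bases lay in both peaks. For MRPL40 (chr22:19419801-19420067, plus strand, also within the annotated spans of HIRA and C22orf39 and outside their exons) all 267 did. For MRPS12 (chr19:39420810-39421109, plus strand, within the annotated span of SARS2) 209 of 300 did. For MRPS23 (chr17:55927418-55927717, minus strand, directly upstream of the gene) all 300 did.
MRPL1: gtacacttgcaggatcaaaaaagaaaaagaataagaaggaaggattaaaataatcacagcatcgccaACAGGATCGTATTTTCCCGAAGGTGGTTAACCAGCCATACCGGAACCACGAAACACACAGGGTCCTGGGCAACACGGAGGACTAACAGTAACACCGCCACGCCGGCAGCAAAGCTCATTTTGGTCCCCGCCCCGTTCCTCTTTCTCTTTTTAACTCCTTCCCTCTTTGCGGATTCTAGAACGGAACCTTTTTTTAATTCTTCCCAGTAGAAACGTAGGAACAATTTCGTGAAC
MRPL40: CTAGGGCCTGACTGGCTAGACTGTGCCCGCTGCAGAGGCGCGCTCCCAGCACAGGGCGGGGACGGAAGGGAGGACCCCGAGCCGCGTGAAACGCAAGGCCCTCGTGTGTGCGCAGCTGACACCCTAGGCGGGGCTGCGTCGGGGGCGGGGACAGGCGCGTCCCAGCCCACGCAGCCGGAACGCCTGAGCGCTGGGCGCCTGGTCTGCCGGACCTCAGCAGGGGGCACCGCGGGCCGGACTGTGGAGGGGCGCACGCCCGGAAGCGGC
MRPS12: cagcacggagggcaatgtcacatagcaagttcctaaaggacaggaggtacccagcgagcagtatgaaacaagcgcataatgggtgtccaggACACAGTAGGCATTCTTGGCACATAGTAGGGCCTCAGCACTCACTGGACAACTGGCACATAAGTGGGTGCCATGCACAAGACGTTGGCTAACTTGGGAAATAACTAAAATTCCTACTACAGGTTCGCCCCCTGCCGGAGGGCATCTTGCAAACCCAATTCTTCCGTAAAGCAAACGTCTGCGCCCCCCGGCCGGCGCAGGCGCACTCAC
MRPS23: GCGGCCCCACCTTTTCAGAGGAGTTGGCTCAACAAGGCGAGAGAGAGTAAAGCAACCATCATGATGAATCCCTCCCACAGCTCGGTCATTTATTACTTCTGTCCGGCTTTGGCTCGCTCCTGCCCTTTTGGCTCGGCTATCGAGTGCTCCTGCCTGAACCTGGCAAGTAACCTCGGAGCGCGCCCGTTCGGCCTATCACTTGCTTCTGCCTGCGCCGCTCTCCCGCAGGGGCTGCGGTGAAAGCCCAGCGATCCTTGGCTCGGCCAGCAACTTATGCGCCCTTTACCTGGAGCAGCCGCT
The 4 genes differ in function. MRPL1 belongs to the mobile stalk next to the exit site for spent tRNA, and MRPS12 is the counterpart of the bacterial decoding-centre protein S12. MRPL40 and MRPS23 have no bacterial counterpart.

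In mock-treated cells, the mitochondrial ribosomal protein genes were marked more often than coding genes in general. A promoter peak was present at 46 of 78 members, or 59.0% (95% Wilson interval 47.9 to 69.2). Over all coding genes the share was 25.3% (5003 of 19812). The gap to the other coding genes was 33.9 percentage points (Newcombe interval 22.8 to 44.1), a ratio of 2.35. These intervals cover counting error over genes within 1 library, they treat genes as independent, and sequenced PCR products are not independent molecules. The paper reported that SUMO was enriched at active promoters and not at inactive ones. Members and coding genes were not matched for promoter activity, here or in the comparisons below. How much of the gap goes with promoter activity was therefore not tested.

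Under Ara-C the members stayed above the background. A promoter peak was present at 42 of 78 members, or 53.8% (42.9 to 64.5), against 30.8% of all coding genes (6111). The gap to the other coding genes was 23.1 points (12.1 to 33.7), a ratio of 1.75. This interval overlaps that of the mock gap, and the difference between the gaps was not tested. With the window ending at the TSS the gaps were 27.0 points in mock and 26.1 points under Ara-C. The number of members with a peak was 4 lower than in mock, while the number of coding genes with one was higher in a list that held more peaks. The order for the members depended on the window. With the window ending at the TSS, 37 members had a peak in mock and 40 under Ara-C. Within 500 bp of the TSS the counts were 38 and 39.

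Under DNR nearly all promoter peaks of the members were missing. Only MRPS18C and MRPS25 had one, 2 of 78 members or 2.56% (0.706 to 8.88), against 8.42% of all coding genes (1668). The gap to the other coding genes was -5.88 points with an interval of -7.78 to 0.444, which reaches past 0, so a share lower than that of other genes under DNR was not resolved at this number of genes. The members thus went from well above the background in mock and Ara-C to at or below it under DNR.

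**Figure D1:**
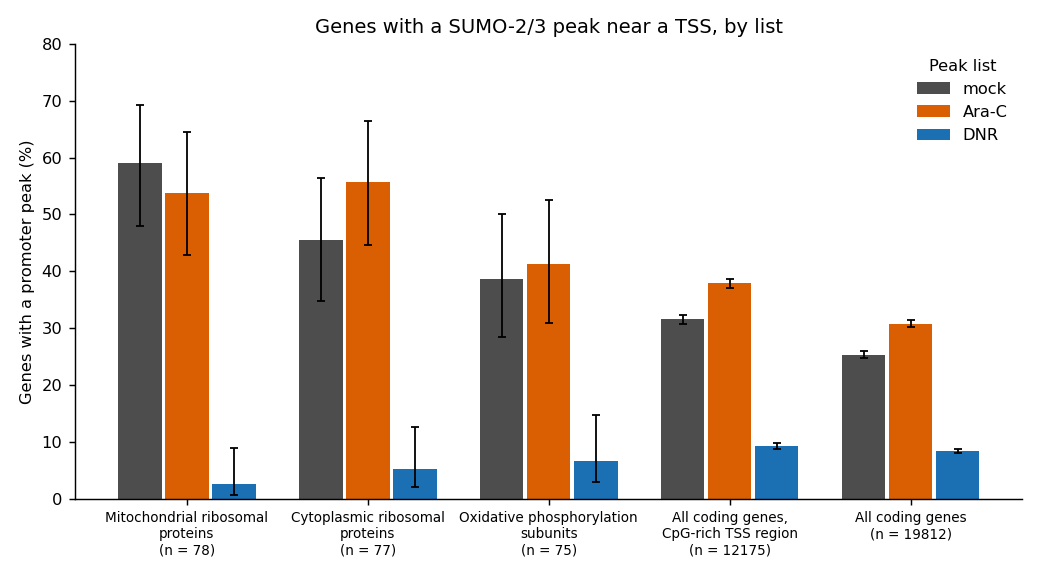
Percent of genes with a SUMO-2/3 promoter peak (vertical axis) in the mock, Ara-C and DNR lists for 5 sets of genes, with bars at the share and lines for 95% Wilson intervals. The mitochondrial ribosomal protein genes have 59.0%, 53.8% and 2.56%, and all coding genes 25.3%, 30.8% and 8.42%.

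The members were set beside other genes of ribosomes and mitochondria. Cytoplasmic ribosomal protein genes, whose products build the ribosome of the cytosol, had a promoter peak at 35 of 77 genes in the mock list (45.5%), 43 in the Ara-C list (55.8%) and 4 in the DNR list (5.19%). Nuclear genes for subunits of oxidative phosphorylation, the pathway that the mitochondrial ribosome serves, had one at 29 of 75 (38.7%), 31 (41.3%) and 5 (6.67%) in the same order. In mock the members exceeded the oxidative phosphorylation genes by 20.3 points (4.47 to 34.8). The difference from the cytoplasmic ribosomal protein genes was 13.5 points, and its interval, -2.15 to 28.3, includes 0. Under Ara-C the members differed from the cytoplasmic ribosomal protein genes by -2.00 points (-17.2 to 13.4) and from the oxidative phosphorylation genes by 12.5 points (-3.25 to 27.4). Under DNR the intervals of both differences included 0.

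Among other genes of mitochondrial gene expression the shares varied by group, and 2 of 5 groups stood near the members in mock. Of 26 genes for assembly of the mitochondrial ribosome and modification of its RNA, 15 had a promoter peak in mock (57.7%, beside 25.3% of all coding genes), 14 did with Ara-C (53.8%, beside 30.8%) and 1 with DNR (3.85%, beside 8.42%). Of 22 mitochondrial aminoacyl-tRNA synthetase genes and their partners, which charge the tRNAs, 13 had one in mock (59.1%), 14 with Ara-C (63.6%) and 3 with DNR (13.6%, 4.75 to 33.3). For 18 genes of translation factors and related proteins the counts were 6 (33.3%), 11 (61.1%) and 1 (5.56%), and for 9 genes of mitochondrial transcription they were 4 (44.4%), 4 (44.4%) and 1 (11.1%). The DNR shares of the synthetase and transcription genes rest on 3 genes and 1 gene. Their intervals (4.75 to 33.3 and 1.99 to 43.5) include the 8.42% of all coding genes, so no difference from it was resolved. Of the 5 further ribosome subunits that do not carry an MRP symbol, such as DAP3, a promoter peak was present at 1 in mock, 3 with Ara-C and 0 with DNR. The last group is too small to be set against the members, since its Wilson interval in mock ran from 3.62 to 62.4%.

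Each of the 78 members can be placed by the lists that held its promoter peak. Peaks in mock and Ara-C but not DNR were present at 28 members, 35.9% against 13.2% of all coding genes. These were MRPL1, MRPL2, MRPL3, MRPL4, MRPL13, MRPL14, MRPL16, MRPL18, MRPL21, MRPL30, MRPL34, MRPL36, MRPL37, MRPL38, MRPL39, MRPL40, MRPL42, MRPL44, MRPL48, MRPL53, MRPL58, MRPS2, MRPS5, MRPS10, MRPS12, MRPS15, MRPS18B and MRPS23. They include core proteins shared with bacteria, such as MRPL2 and MRPL3 near the peptidyl transferase centre, and MRPL58, a peptidyl-tRNA hydrolase that became a ribosome subunit.

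A peak in mock alone was present at 17 members, 21.8% against 8.50% of all coding genes. They were MRPL11, MRPL17, MRPL19, MRPL22, MRPL28, MRPL41, MRPL43, MRPL57, MRPS16, MRPS17, MRPS21, MRPS27, MRPS30, MRPS31, MRPS33, MRPS34 and MRPS36. A peak under Ara-C alone was present at 13, 16.7% against 13.6%. They were MRPL9, MRPL10, MRPL12, MRPL24, MRPL27, MRPL47, MRPL51, MRPL52, MRPL54, MRPS18A, MRPS24, MRPS26 and MRPS35. MRPL10 and MRPL12 form the stalk that recruits translation factors, and MRPL11 forms its base. The first pair had a promoter peak under Ara-C alone and MRPL11 in mock alone.

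No member had a promoter peak in all 3 lists, beside 494 coding genes (2.49%), and none had one under DNR alone, beside 685 coding genes (3.46%). A count of 0 of 78 allows a share of up to 4.69% by the Wilson interval, so neither share differed detectably from that of all coding genes. MRPS18C had peaks in mock and DNR, and MRPS25 in Ara-C and DNR. The remaining 18 members had no promoter peak in any list, 23.1% against 56.2% of all coding genes. They were MRPL15, MRPL20, MRPL23, MRPL32, MRPL33, MRPL35, MRPL45, MRPL46, MRPL49, MRPL50, MRPL55, MRPS6, MRPS7, MRPS9, MRPS11, MRPS14, MRPS22 and MRPS28. MRPL45 holds the ribosome at the inner membrane and MRPL23 lies at the exit of the nascent chain. MRPL46 and MRPS11 are transcribed away from each other from TSSs 318 bp apart, the 1 such pair among the members, and neither had a promoter peak.

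**Figure D2:**
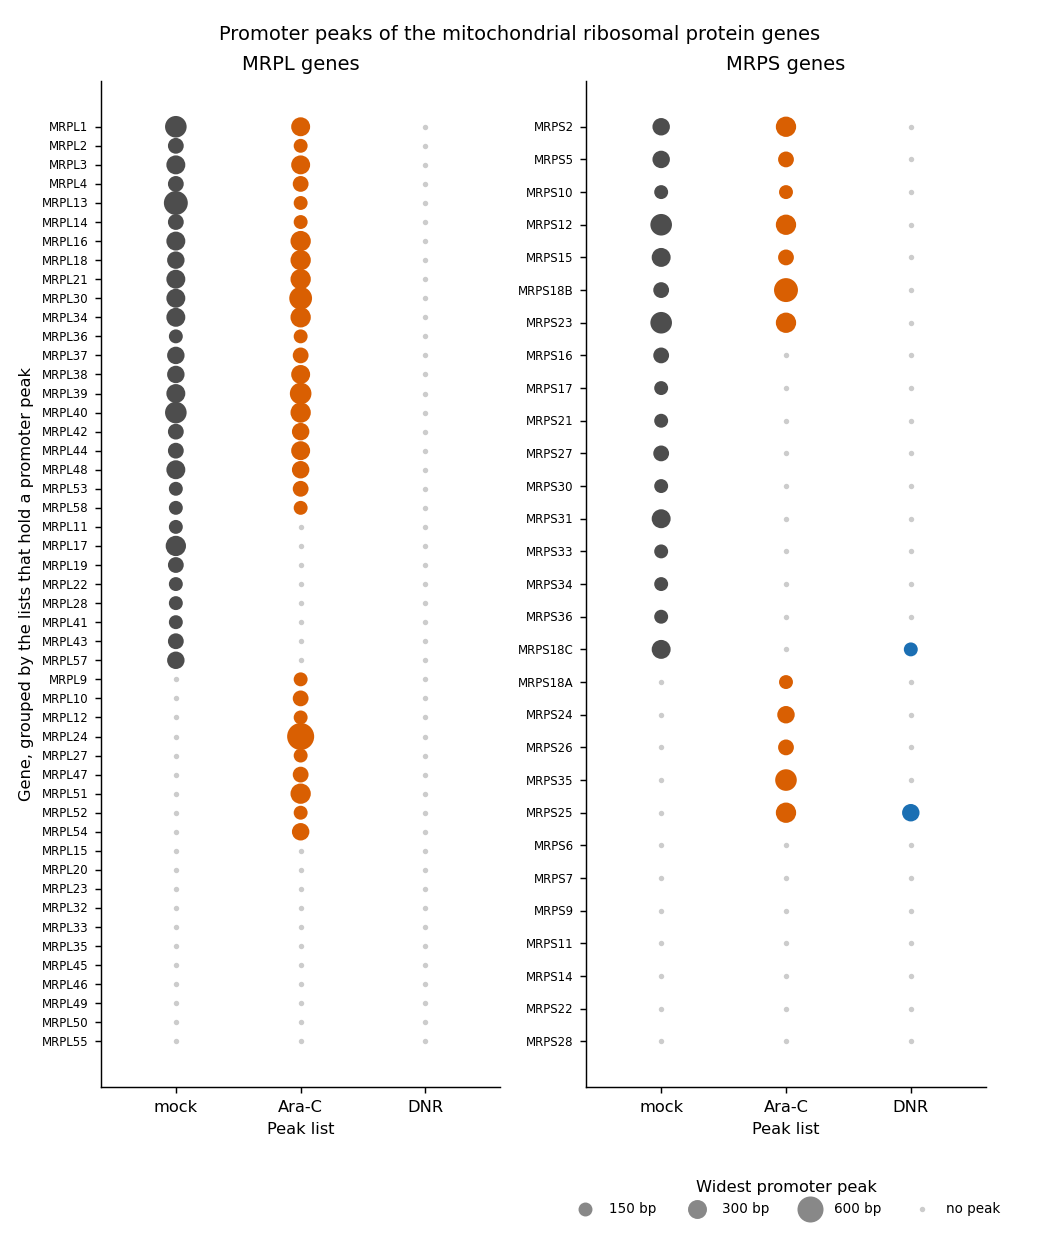
Each row is 1 mitochondrial ribosomal protein gene and each column 1 peak list, with the area of a dot in proportion to the width in bp of the widest promoter peak and a small grey dot where none was called. Rows are grouped by the lists that hold a peak: 28 genes have dots under mock and Ara-C, and the DNR column holds 2 dots.

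The gene names of both subunits gave nearly the same share in mock. A promoter peak was present at 29 of 49 MRPL genes (59.2%) and at 17 of 29 MRPS genes (58.6%), beside 25.3% of all coding genes. The difference between MRPL and MRPS genes was 0.563 points (-20.6 to 22.4). Under Ara-C the counts were 30 MRPL genes (61.2%) and 12 MRPS genes (41.4%, 25.5 to 59.3), beside 30.8%. Here the MRPL share was 19.8 points above the MRPS share, and the interval, -2.85 to 39.9, includes 0. Under DNR no MRPL gene had a promoter peak, which allows a share of up to 7.27% by the Wilson interval, and the 2 genes with one were MRPS genes (6.90%), beside 8.42%. The 46 members whose protein has a bacterial counterpart and the 32 without one gave counts of 26 (56.5%, 42.2 to 69.8) and 20 (62.5%, 45.3 to 77.1) in mock, 24 (52.2%, 38.1 to 65.9) and 18 (56.2%, 39.3 to 71.8) with Ara-C, and 1 and 1 with DNR. The shares of all coding genes, 25.3% in mock and 30.8% with Ara-C, lay below the intervals of both of these classes.

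Of the 46 members with a mock promoter peak, 28 had one under Ara-C as well, or 60.9% (46.5 to 73.6), beside 62.3% of all coding genes with a mock promoter peak. The difference from the other coding genes was -1.49 points (-16.0 to 11.3), so no difference in persistence under Ara-C was resolved. Under DNR 1 of the 46 did, MRPS18C, or 2.17% (0.385 to 11.3), beside 13.9% of all coding genes with a mock promoter peak. Here the difference was -11.8 points (-13.9 to -2.60), and its interval excludes 0. It rests on 1 of the 46 members and was not repeated under other settings. Any DNR peak in the window counted here, at the same place or not. By the same count the cytoplasmic ribosomal protein genes had 3 of 35 (8.57%, 2.96 to 22.4) and the oxidative phosphorylation genes 3 of 29 (10.3%, 3.58 to 26.4) under DNR, with intervals that overlap that of the members.

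The promoter windows of the members held 54 mock peaks, 52 Ara-C peaks and 2 DNR peaks. Widths ran from 150 bp, the shortest run that the calling allowed, to 500 bp in mock and 650 bp under Ara-C, and the median was 200 bp in both lists. Peaks of 300 bp or more were 16 of 54 in mock (29.6%, beside 21.8% of the promoter peaks of all coding genes) and 19 of 52 under Ara-C (36.5%, beside 20.0%). Peaks of exactly 150 bp were 33.3% and 32.7%, beside 36.4% for all coding genes in each list. The lists give no heights, and how width relates to signal strength was not tested.

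MRPL13, a large-subunit protein shared with bacteria, had the widest mock peak among the members, at 500 bp. Under Ara-C its peak was 150 bp wide and lay inside the mock peak, and under DNR the nearest peak was 234 kb from a TSS. MRPL24 had the widest Ara-C peak, 650 bp from 156710651 to 156711300 on chromosome 1, which covered a TSS, whereas its nearest peaks were 8.63 kb away in mock and 3.78 kb away under DNR. MRPS18B had a 200 bp mock peak whose midpoint was 1416 bp upstream and a 500 bp Ara-C peak at 716 bp upstream, which did not overlap. Neither covered its TSS. Both also lay in the window of PPP1R10, which starts 597 bp away on the other strand, so they cannot be assigned to MRPS18B alone. MRPL30 had a 300 bp mock peak and a 450 bp Ara-C peak that contained it, both over the TSS.

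Only at MRPS18C did a mock promoter peak of a member overlap a DNR peak. The overlap covered less than 50% of the mock peak, and no such overlap was left when peaks of at least 200 bp were required. MRPS18C encodes the member of the S18 family that takes the place of bacterial S18. In mock a 300 bp peak (chr4:84377051-84377350) covered its TSS, and under DNR a 150 bp peak (chr4:84377001-84377150) covered it. No promoter peak was called under Ara-C, where the nearest peak was 6.54 kb away. The window is shared with HELQ, a DNA helicase gene that starts 160 bp away on the other strand. Of the mock peak, 54 bases lay outside exons, and the longest run of them is 34 bases on the plus strand (chr4:84377051-84377084). All of this run lay in the DNR peak too and is therefore in capitals. It contains the core of the site for the transcription factor NRF1, GCGCATGC.
MRPS18C: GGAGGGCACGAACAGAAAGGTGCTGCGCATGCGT
The other member with a DNR peak, MRPS25, is a small-subunit protein without a bacterial counterpart. Its DNR peak was 250 bp wide (chr3:15106351-15106600) with its midpoint 309 bp downstream of a TSS, inside the gene. Its Ara-C peak was 350 bp wide (chr3:15106801-15107150), covered the TSS and did not overlap the DNR peak. The nearest mock peak was 33.7 kb away.

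The peaks of the members sat close to the TSS. Taking for each gene the peak nearest to a TSS, the median offset of its midpoint from the TSS, negative upstream, was -51.5 bp in mock (-105 to 0) and -79.5 bp under Ara-C (-121 to -37.0). For all coding genes the offsets were -96.0 bp and -91.0 bp. The peak lay within 500 bp of a TSS at 36 of 46 members in mock (78.3%, beside 69.7% of coding genes with a promoter peak) and at 37 of 42 under Ara-C (88.1%, beside 68.4%). It covered a TSS at 22 of 46 members in mock (47.8%, beside 29.8%) and at 23 of 42 under Ara-C (54.8%, beside 30.5%). Of the coding genes with a promoter peak under DNR, 8.57% had a TSS covered and the median offset was -288 bp.

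Scanned position by position from the 5′ end of each gene, the share of members under a peak was highest 100 bp upstream in mock, at 26.9% (21 of 78), and equally at 100 and 50 bp upstream under Ara-C, at 26.9%. The share of all coding genes was highest 100 bp upstream, at 6.72% in mock and 7.64% under Ara-C. Under DNR no position was covered in more than 1.28% of members, which is 1 gene, and the highest share of all coding genes was 0.661%, at 350 bp upstream. The members and coding genes in general thus had their maximum within 100 bp upstream in mock and Ara-C and differed in how many genes contributed to it.

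**Figure D3:**
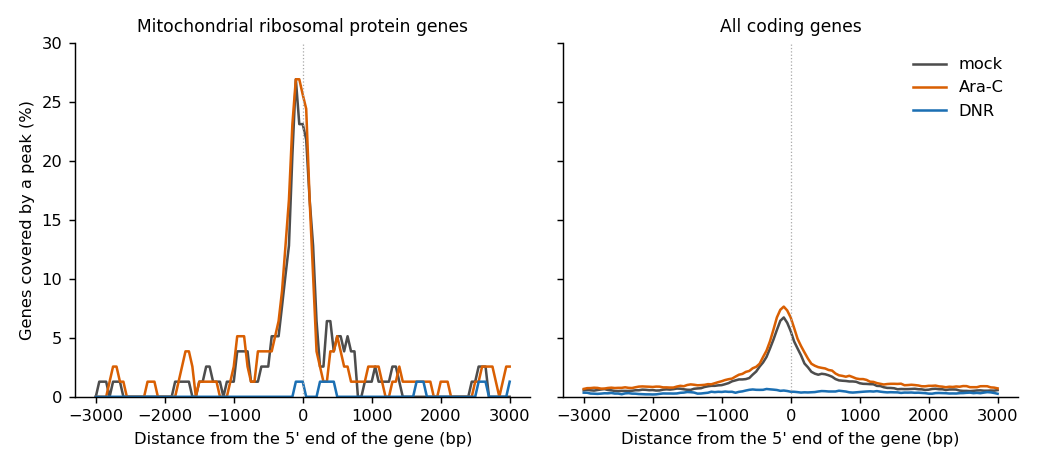
Percent of genes covered by a peak (vertical axis) against the distance in bp from the 5′ end of the gene, negative upstream, for the members and for all coding genes in the 3 lists. The mock and Ara-C lines of the members reach 26.9% at 100 bp upstream, and the DNR line does not rise above 1.28%.

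Away from the promoters the shares of the members in mock and Ara-C lay near those of all coding genes. In windows of the same length placed 20 kb upstream, 6.41% of members had a mock peak, 15.4% an Ara-C peak and 6.41% a DNR peak, beside 9.29%, 13.3% and 6.12% of all coding genes. In windows placed 20 kb downstream the shares were 10.3%, 11.5% and 11.5%, beside 8.81%, 13.1% and 6.07%. The interval of the downstream DNR share, 6.19 to 20.5%, lies just above the share of all coding genes. The DNR share of the members was thus 2.56% at the promoters, 6.41% in the upstream windows and 11.5% in the downstream windows, and the Wilson intervals of the 3 shares overlap. The median distance from a TSS of a member to the nearest peak was 0.514 kb in mock, 0.648 kb with Ara-C and 28.5 kb with DNR (21.1 to 37.4). For all coding genes the median distances were 12.1 kb, 6.49 kb and 26.8 kb, and the last lies inside the interval of the members.

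A gene can have a promoter peak in both lists at different places, so overlap was also counted for single peaks. Of the 54 mock promoter peaks of the members, 23 shared at least 1 bp with an Ara-C peak, or 42.6% (30.3 to 55.8), beside 36.3% of the mock promoter peaks of all coding genes. Conversely, 23 of 52 Ara-C peaks overlapped a mock peak (44.2%, beside 28.2%). The 23 overlapping pairs belonged to 23 members. The other 5 of the 28 members with a promoter peak in both lists, MRPL4, MRPL36, MRPL42, MRPS10 and MRPS18B, had it at different places in the window. Under DNR 1 of the 54 mock peaks was overlapped, or 1.85% (0.328 to 9.77), beside 4.18%. None of the 52 Ara-C peaks was, which allows a share of up to 6.88%, beside 3.61%. In both cases the share of all coding genes lies inside the interval of the members, so no lower share at the same place was resolved.

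**Figure D4:**
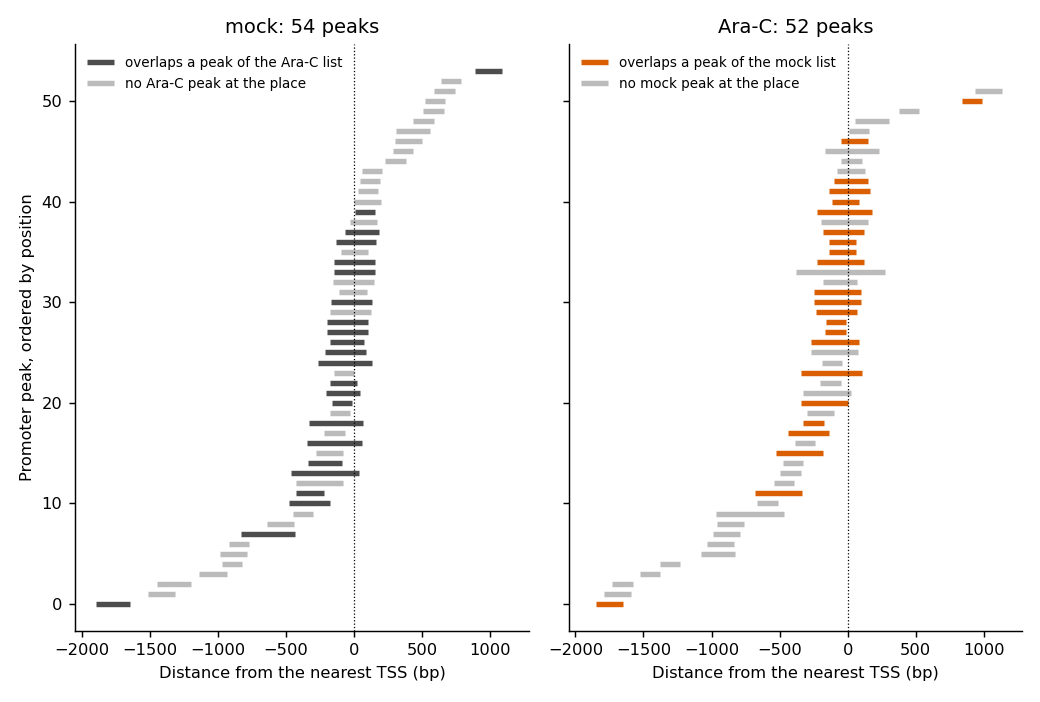
Each bar is 1 promoter peak of a member, drawn to scale along the distance in bp from the nearest TSS and ordered by position, for the 54 mock peaks and the 52 Ara-C peaks. Coloured bars overlap a peak of the other list, grey bars do not, and most of the 23 coloured bars in each panel lie within 500 bp of the TSS.

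Wide mock peaks had an overlapping Ara-C peak more often than narrow ones. Of the 16 mock peaks of 300 bp or more, 13 were overlapped (81.2%, 57.0 to 93.4), of the 20 peaks of 200 to 250 bp 8 were (40.0%, 21.9 to 61.3), and of the 18 peaks of 150 bp 2 were (11.1%, 3.10 to 32.8). The same order was seen over all coding genes, with 69.5%, 36.0% and 16.8%, and in each class the share of all coding genes lay inside the interval of the members. The 3 wide mock peaks without an Ara-C peak at the place were those of MRPL17 (350 bp), MRPS18C (300 bp) and MRPS31 (300 bp). At the gene level, the widest mock peak had a median of 250 bp at the 28 members that also had an Ara-C promoter peak and of 150 bp at the 18 that did not. Under DNR 1 of the 16 wide peaks was overlapped (6.25%, 1.11 to 28.3), beside 10.2% of those of all coding genes.

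**Figure D5:**
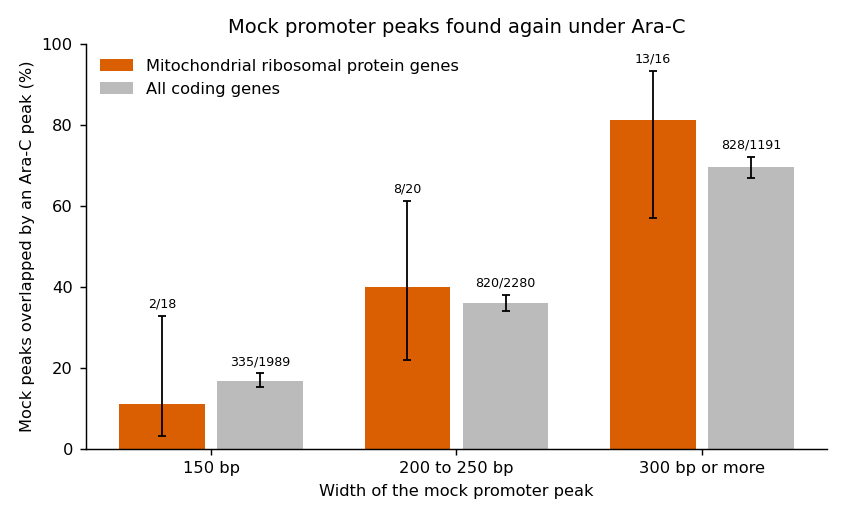
Percent of mock promoter peaks overlapped by an Ara-C peak (vertical axis) in 3 classes of mock peak width, for the members and for all coding genes, with 95% Wilson intervals and the counts above them. The members rise from 2 of 18 peaks of 150 bp to 13 of 16 peaks of 300 bp or more.

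Where a peak was called at the same place in mock and Ara-C, its width rose about as often as it fell. Of the 23 pairs, 9 were wider under Ara-C, 12 were narrower and 2 were equal, with a median of 300 bp in each list and a median difference of -50 bp, 1 bin of the signal. The largest decrease was that of MRPL13, from 500 to 150 bp. The largest increase was that of MRPL30, from 300 to 450 bp. MRPL39, MRPL44 and MRPS2 each gained 100 bp, and MRPL1 and MRPS15 each lost 100 bp. MRPL3, from 131221651 to 131221950 on chromosome 3, and MRPL58, from 73008601 to 73008750 on chromosome 17, had the same start and end in both lists.

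The promoters of the members shared features that the choice by symbol did not use. A CpG-rich TSS region, here at least 50% GC with an observed to expected CpG ratio of at least 0.6 within 500 bp of the 5′ end, was present at 65 of 78 members (83.3%, beside 61.5% of all coding genes and 87.0% of cytoplasmic ribosomal protein genes). CpG-rich genes carried promoter peaks more often in general, so the comparison was repeated among them. In mock 56.9% of CpG-rich members and 31.5% of the other CpG-rich genes had a promoter peak, a gap of 25.5 points (13.3 to 36.8). Under Ara-C the gap was 14.5 points (2.57 to 26.2) and under DNR -6.20 points (-8.50 to 1.28). The intervals of these gaps overlap those over all genes, and the differences between the gaps were not tested. Among the 13 members without such a region, 9 had a promoter peak in mock (69.2%, beside 15.1% of all coding genes without one), 8 with Ara-C (61.5%, beside 19.7%) and 0 with DNR, which allows up to 22.8%, beside 7.10%.

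A divergent coding partner, that is a coding gene that starts within 1 kb on the other strand and runs the other way, was present at 27 of 78 members (34.6%, beside 11.2% of all coding genes and 16.9% of cytoplasmic ribosomal protein genes). Members with a partner had a promoter peak at 15 of 27 in mock and 18 of 27 under Ara-C, and members without one at 31 of 51 and 24 of 51. In percent, members with a partner had 55.6% in mock and 66.7% under Ara-C, beside 40.9% and 47.7% of all coding genes with a partner. Members without one had 60.8% and 47.1%, beside 23.3% and 28.7%. The differences, -5.23 points (-27.2 to 16.5) and 19.6 points (-3.52 to 39.2), have intervals that include 0. Among genes without a partner, a comparison chosen after the data had been seen, the members exceeded the other coding genes by 37.6 points in mock and 18.4 points under Ara-C. Among genes with a partner, the 40.9% of all coding genes in mock lay inside the interval of the members (37.3 to 72.4). Under Ara-C the 47.7% lay just below that interval (47.8 to 81.4). Whether the excess of the members differed between genes with and without a partner was not tested. Of the member peaks, 20 of 54 in mock (37.0%) and 26 of 52 under Ara-C also lay in the window of another coding gene, so these peaks cannot be assigned to the member alone. Such neighbours included TCP1 at MRPL18, NDUFS6 at MRPL36, NDUFB5 at MRPL47 and TWNK, the mitochondrial DNA helicase, at MRPL43.

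The number of start sites per gene was the same by its median, 2.00 annotated TSSs for members and for all coding genes, and median GC content around the 5′ end was 57.1% against 60.2%. A gene with more TSSs has more window to catch a peak, so genes with 1 annotated TSS were also compared. A promoter peak was present at 19 of 30 such members in mock (63.3%, beside 18.1%), 18 under Ara-C (60.0%, beside 22.3%) and 0 under DNR, which allows up to 11.4%, beside 6.22%.

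Cores of the binding sites of 3 transcription factors that are known at promoters of this kind were searched on both strands from 250 bp upstream to 50 bp downstream of the 5′ end, each core on its own, and none of the 3 has the same letters as another. The NRF1 core, GCGCATGC, was present at 9 members (11.5%, beside 4.03% of all coding genes). The core shared by ETS factors, CCGGAAGT, was present at 10 (12.8%, beside 5.54%). The YY1 core, AAGATGGC, was present at 16 (20.5%, beside 3.44%). All of these were more frequent than in coding genes in general, and the intervals of the members (6.19 to 20.5, 7.12 to 22.0 and 13.0 to 30.8) exclude the shares of all coding genes. In the cytoplasmic ribosomal protein genes the NRF1, ETS and YY1 cores were present at 2, 9 (11.7%) and 8 (10.4%) of 77 genes, so the ETS share was close to that of the members. A match of letters is a description and does not show that a factor was bound.

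No difference in promoter peaks between members with and without a core was resolved. In mock the shares were 5 of 9 with and 41 of 69 without the NRF1 core, 6 of 10 and 40 of 68 for the ETS core, and 7 of 16 and 39 of 62 for the YY1 core. With the core, these were 55.6%, 60.0% and 43.8% of members, beside 28.6%, 38.4% and 33.4% of all coding genes with the same core, and in each of these mock cases the latter lay inside the interval of the members (26.7 to 81.1, 31.3 to 83.2 and 23.1 to 66.8). The largest differences were 30.0 points under Ara-C for the ETS core (8 of 10 against 34 of 68, interval -3.07 to 48.4) and -19.2 points in mock for the YY1 core (-42.5 to 7.06). The 8 of 10 members with the ETS core and an Ara-C promoter peak (interval 49.0 to 94.3%) stood beside 46.9% of all coding genes with that core, which lies just outside the interval. Inside the called peaks, the ETS core was present in 8 of 52 Ara-C peaks of members (15.4%, 8.01 to 27.5), beside 3.48% of the Ara-C promoter peaks of all coding genes. These were peaks of MRPL3, MRPL16, MRPL18, MRPL24, MRPL38, MRPL47, MRPL51 and MRPL53. The peaks compared were not matched for position, and under Ara-C those of members covered a TSS at more genes (54.8%, beside 30.5%). Member promoters also held the ETS core more often (12.8%, beside 5.54%). The NRF1 core was present in 4 of the 52 (7.69%, 3.03 to 18.2, beside 1.38%), at MRPL24, MRPL52, MRPL54 and MRPS12. In mock peaks of members the same cores were present in 3 of 54 (5.56%, beside 3.88%) and 1 of 54 (1.85%, beside 1.50%). The YY1 core, the most frequent of the 3 at member promoters, was present in 0 of 54 mock peaks, which allows up to 6.64%, beside 1.92%. It was present in 3 of 52 Ara-C peaks (5.77%, 1.98 to 15.6, beside 2.03%), at MRPL51, MRPS18B and MRPS24.

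The study linked SUMO-2/3 sites to CTCF, a factor that organises chromatin loops, by motif enrichment over all its SUMO-2/3 peaks and by mapping CTCF binding. CTCF binding at the members was not examined here, and only the CTCF core consensus was searched. It was found in no member promoter from 250 bp upstream to 50 bp downstream, which allows up to 4.69% by the Wilson interval, beside 0.379% of all coding genes. Within the called peaks it was found at 1 member, MRPL38, in 1 of 54 mock peaks (1.85%) and 1 of 52 Ara-C peaks (1.92%). The shares for all coding genes were 1.89% and 1.58%. Only matches to the full 14-letter consensus were counted. With 1 match in each list, the intervals of the members (0.328 to 9.77 and 0.340 to 10.1) could not show an excess or a lack.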

How the data were processed

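The authors sequenced single-end reads of 50 bases and aligned them to hg19 with CASAVA 1.8.2. With the Pasha package they kept uniquely placed reads, removed piles above 5 reads (mock) or 4 reads (drugs), extended reads to 210 bp (220 bp for DNR), counted them in 50 bp bins, scaled the libraries and subtracted the input. Runs above a signal of 32, with gaps of at most 100 bp, were called as peaks. The deposited values are peak positions only (chromosome, start and end), with no coverage, score or p-value, so depth is unknown. Near-identical copies of a gene lose reads when only unique placements are kept.

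From these positions, promoter windows were built on 55871 TSSs of basic protein-coding transcripts in GENCODE 44 lifted to GRCh37, the assembly of hg19, and the mitochondrial chromosome was left out. Sequences were read from the GRCh37 genome. Classes by bacterial counterpart followed the common ribosomal protein nomenclature. Counts were checked against bedtools 2.31.1 and the steps were tested on simulated data. Shares carry Wilson intervals, differences of shares Newcombe intervals and medians order-statistic intervals, each at 95%. Named members were those with a DNR peak, those with the widest peaks and those with a mock but no Ara-C peak, and every other member was named by its lists. Members named again for a role, a partner, a core or a shared place were chosen after their values were seen. The members, gene lists and comparisons were chosen with earlier results of these data known. Alternatives covered peak width, window, placement, overlap rule and gene set. Python 3.11.15, numpy 2.4.6, pandas 2.3.3, scipy 1.17.1, pysam 0.24.0 and matplotlib 3.10.9 were used.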

Additional observations from a re-analysis of the deposited data

How the results depend on the processing

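Of 61 values under alternative settings, 53 lay inside the 95% interval of the reported value, 8 lay outside it and 0 changed sign. Counting only peaks of at least 200 bp lowered the share of members with a promoter peak from 59.0% to 41.0% in mock and from 53.8% to 39.7% under Ara-C, while the shares of all coding genes fell to 17.5% and 21.6%. It took the share of mock-marked members with a DNR promoter peak, and the share of their mock peaks found again under DNR, to 0%. Requiring at least 50% of the mock peak to be shared also took the latter to 0%. A window ending at the TSS lowered the mock share to 47.4% and the Ara-C share to 51.3%, so the Ara-C share was then the higher. Among genes with 1 annotated TSS, a comparison chosen after the data had been seen, the gap to other coding genes was 45.5 points in mock and 37.8 points under Ara-C.

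Leaving out genes with a divergent partner was also chosen after the data had been seen. The gap between members and other coding genes ranged over all settings from 23.6 to 45.5 points in mock, from 14.5 to 37.8 points under Ara-C and from -6.48 to -1.48 points under DNR. Under DNR its interval included 0 in every setting. The counts under DNR rest on 2 peaks, and the 1 DNR peak over a mock peak was 150 bp wide, the shortest run allowed. No paired analysis was possible because mock, Ara-C and DNR have 1 library each, and no replicate could be left out.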
